A study of Homo sapiens with 15 samples.

Results

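The transcriptomes of BEAS-2B cells after 24 h with 30 and with 1 µg/cm2 of PM2.5 were compared directly, dose against dose. BEAS-2B is an immortalized line of human bronchial epithelial cells, kept here on collagen in a serum-free growth medium, and PM2.5 is fine airborne particulate matter, taken on filters in Beijing and extracted into water by sonication. All 6 libraries were from cells that received particles once, 3 at each dose, and the number that ends a sample's title pairs the doses of one experiment. The series holds 15 libraries in 5 conditions, 3 of vehicle control at 24 h, used below as the level each dose is read against, and 6 of a daily protocol. Of the 58219 genes in the count table, 17599 passed a filter on low counts and are the genes of this comparison. A single submerged, transformed line stands in for the airway epithelium, and in bulk RNA fewer cells of a kind and less RNA per cell cannot be told apart.

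Particles of this kind carry polycyclic aromatic hydrocarbons, metals and salts. Aromatic hydrocarbons bind the aryl hydrocarbon receptor (AhR), which moves to the nucleus with ARNT and turns on the enzymes that oxidize them. Electrophiles and oxidants release the transcription factor NRF2 from KEAP1, metals induce metallothioneins, and damaged or stressed epithelium sheds ligands of the EGF receptor, whose signal runs through MAP kinases to early transcription factors and cytokines.

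Between 21460981 and 32649858 reads per library were counted on genes at the 2 doses, so that 3 counts correspond to 0.0985 to 0.149 CPM (reads of a gene over the TMM-scaled library total, on the usual CPM scale). Experiment 2 stood apart from the others at both doses, and what sets it apart was not tested. Per degree of freedom, the chi-square of its counts against those of experiments 1 and 3 was 127 to 169 at either dose, against 13.9 between experiments 1 and 3 at 1 µg/cm2 and 4.26 at 30 µg/cm2. Mitochondrial genes took 3.22%, 4.17% and 3.42% of the counts at 1 µg/cm2 in experiments 1, 2 and 3 and 2.76%, 4.13% and 3.28% at 30 µg/cm2. The doses overlapped across experiments, and within each experiment the share was lower at 30 µg/cm2. Values are listed below in this order of the experiments. The epithelial markers KRT5, KRT14, KRT17, KRT8, KRT18, KRT19, TP63, CDH1 and EPCAM were detected in all 6 libraries.

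A gene was called at an absolute log2 difference of at least 0.6 and an adjusted p-value under 0.05, with edgeR's quasi-likelihood test, Benjamini-Hochberg adjustment over all genes tested and the experiment as a replicate block. At 30 µg/cm2, 1227 genes (6.97% of those tested) were higher and 1510 (8.58%) lower than at 1 µg/cm2, 15.6% in all. Without the block these were 637 (3.62%) and 742 (4.22%), 7.84% in all, and without experiment 2 they were 1456 and 1918. The median log2 difference was 0.02 over all genes tested, 0.93 over the genes called higher and -0.99 over those called lower. In 1781 of the 2737 called genes all 9 pairs of a library at 30 and a library at 1 µg/cm2 differed the same way, which was so for 21.6% of all genes tested. Within experiments 1, 2 and 3 the median log2 ratio of the genes called higher was 0.84, 0.71 and 0.87, and that of the genes called lower -0.90, -0.73 and -0.86. Experiment 2 gave the smallest of the 3 ratios in 699 of the genes called higher and 828 of those called lower. Changes over 4-fold were called in 122 genes that were higher and 175 that were lower.

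**Figure D1:**
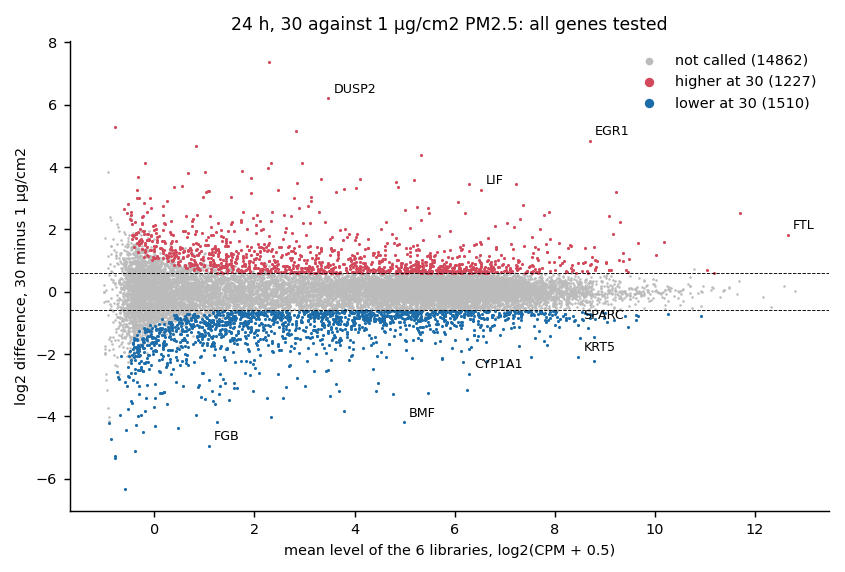
Log2 difference between 30 and 1 µg/cm2 of PM2.5 (vertical axis) against the mean level of the 6 libraries as log2(CPM + 0.5) for the 17599 genes tested, with dashed lines at 0.6 either way. The 1227 genes called higher are red and the 1510 called lower are blue; FTL lies furthest to the right of the named genes and EGR1 highest among the abundant ones.

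Most of the largest rises were in genes with few reads at 1 µg/cm2. DUSP2, a nuclear phosphatase that switches off MAP kinases, was at 0.272, 0.0991 and 0.456 CPM at 1 µg/cm2 and at 28.4, 2.63 and 31.5 CPM at 30 µg/cm2 (log2 difference 6.21 ± 0.33 (SE), adjusted p = 4.17e-07). PTX3, a secreted pentraxin of innate immunity, went from 2.58, 4.11 and 3.51 CPM at the lower dose to 91.0, 37.1 and 99.3 CPM at the higher (log2 difference 4.39 ± 0.32 (SE), adjusted p = 2.02e-06). IL1RL1, the receptor of IL-33, went from 0.577, 0.793 and 0.772 CPM at the lower dose to 18.5, 3.02 and 19.9 CPM at the higher (log2 difference 4.14 ± 0.42 (SE), adjusted p = 2.11e-05). Of the 3 experiments, experiment 2 gave the lowest level of each at 30 µg/cm2. Exons of PTX3 overlap VEPH1 and those of IL1RL1 overlap IL18R1, and the strand used in counting is not given in the sources used here, so part of these reads may belong to the neighbours. PAPPA2, a protease of IGF-binding proteins, had a log2 difference of 4.68 ± 0.51 (SE), SPOCD1 of 4.12 ± 0.27, VGF, a precursor of secreted peptides, of 3.98 ± 0.42, and RAB39B, a small GTPase of vesicle traffic, of 3.87 ± 0.47. EGR1 and HSPA6, which complete the genes of this size, are described with their lists. RPLP0P2, a pseudogene of the ribosomal protein RPLP0 on chromosome 11, 61615036 to 61639449 (GRCh38), had 681 counts summed over the libraries at 30 µg/cm2 and 4 at 1 µg/cm2, a ratio of 166 (95% exact interval 64.5 to 610.4) after scaling. The interval covers counting error only, and reads of a pseudogene cannot be assigned with certainty.

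Among the largest falls were chains of the clotting protein fibrinogen and several genes whose level was highest at 1 µg/cm2. FGB, the beta chain of fibrinogen, was at 2.79, 3.86 and 2.77 CPM at 1 µg/cm2 and at 0, 0.277 and 0 CPM at 30 µg/cm2 (log2 difference -4.94 ± 0.57 (SE), adjusted p = 5.33e-05). BMF, a BH3-only protein that promotes apoptosis, was at 39.0, 96.0 and 40.1 CPM at 1 µg/cm2, above the vehicle control of the same experiment (8.72, 46.1 and 8.53 CPM), and at 1.48, 8.01 and 2.01 CPM at 30 µg/cm2, below it. Its log2 difference between the doses was -4.18 ± 0.24 (SE, adjusted p = 5.01e-07). CCN5, a matricellular protein, was likewise at 1.68, 7.67 and 1.10 CPM in the controls, 5.77, 14.2 and 5.55 CPM at 1 µg/cm2 and 0.263, 1.28 and 0.239 CPM at 30 µg/cm2 (log2 difference -4.03 ± 0.34 (SE), adjusted p = 5.48e-06). Both were called higher at 1 µg/cm2 against control (log2 difference 1.81 and 1.59, adjusted p = 0.00185 and 0.0214) and lower at 30 µg/cm2 (log2 difference -2.38 and -2.44), comparisons that share the control libraries. ATOH8, a basic helix-loop-helix transcription factor, went from 14.3, 45.9 and 13.6 CPM at the lower dose to 0.755, 4.26 and 0.574 CPM at the higher (log2 difference -3.84 ± 0.21 (SE), adjusted p = 4.88e-07), against 10.02, 35.3 and 11.05 CPM in the controls. In BMF, CCN5 and ATOH8 the level in experiment 2 was above that of the other experiments at every dose, while the ratio of the doses within an experiment was close: -4.32, -3.50 and -4.02 on the log2 scale for BMF and -3.56, -3.29 and -3.72 for ATOH8.

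SULT2B1, a sterol sulfotransferase, was at 0.510, 3.96 and 0.562 CPM at 1 µg/cm2 and at 0, 0.173 and 0.0957 CPM at 30 µg/cm2, with experiment 2 far above the others at the lower dose (log2 difference -4.36 ± 0.62 (SE), adjusted p = 2.40e-04). CACNA2D3, a calcium channel subunit, FMO2, the lung form of flavin-containing monooxygenase, CSF3R, the receptor of G-CSF, and IGFL2-AS1, an antisense RNA counted without a stated strand, had log2 differences of -3.96 ± 0.40 (SE), -3.61 ± 0.54, -3.60 ± 0.45 and -3.51 ± 0.46. Without the block SULT2B1 and CSF3R were not called (adjusted p = 0.0741 and 0.0951), and the other 18 of the 20 largest changes were. The 20 were taken from genes in which all 9 pairs of a library at 30 and one at 1 µg/cm2 differed in the direction of the call, so the signs of their ratios are fixed by that choice. The same choice favours a call without the block, which 1371 of all 2737 called genes kept.

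**Figure D2:**
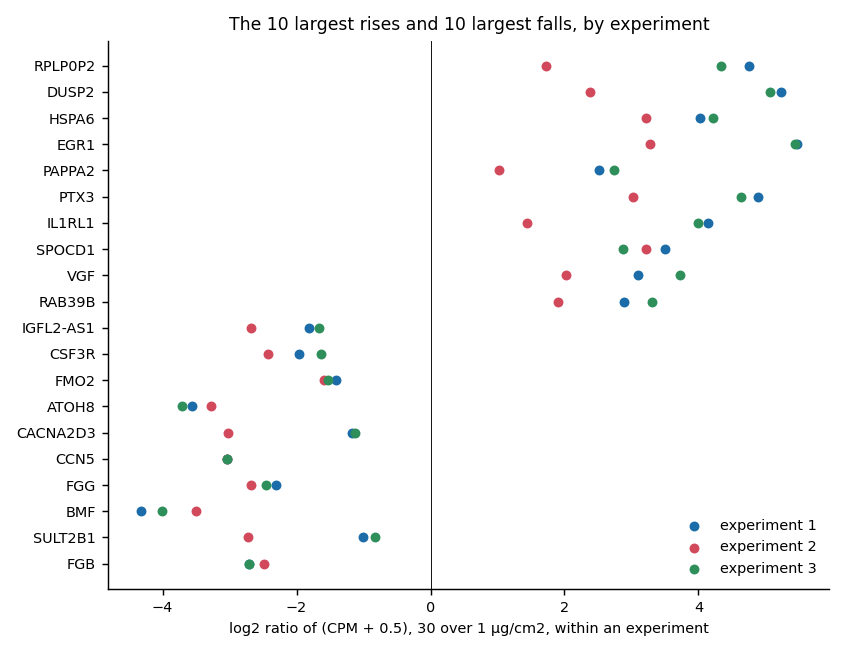
Log2 ratio of (CPM + 0.5) at 30 over 1 µg/cm2 (horizontal axis) within each of the 3 experiments (colours) for the 10 largest rises and 10 largest falls by the fitted log2 difference. The genes were chosen with all 9 pairs of libraries in 1 direction, which fixes the sides of 0; the ratios of EGR1 are 5.47, 3.27 and 5.44.

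Of the 9 genes of the AhR pathway listed, 7 were tested, 3 were lower at 30 than at 1 µg/cm2 and 0 higher. Those lower were 42.9% of the members tested, against 8.58% of all genes. CYP1A1, the enzyme that oxidizes polycyclic aromatic hydrocarbons, was at 1.29, 0.565 and 1.45 CPM in the controls, 152, 88.8 and 152 CPM at 1 µg/cm2 and 13.4, 42.8 and 12.9 CPM at 30 µg/cm2. The higher dose thus gave the lower level in every experiment, by 6.21-fold in the fit (log2 difference -2.63 ± 0.44 (SE), adjusted p = 6.71e-04), with all libraries of both doses above the controls (log2 difference from control 6.85 at 1 and 4.21 at 30 µg/cm2). Within experiments 1, 2 and 3 the log2 ratio of the doses was -3.46, -1.04 and -3.51, so the fall was smallest in experiment 2. AHRR, the repressor that AhR induces against itself, was at 4.06, 3.53 and 3.26 CPM in the controls, 21.4, 20.1 and 16.8 CPM at 1 µg/cm2 and 9.82, 11.9 and 9.43 CPM at 30 µg/cm2 (log2 difference -0.90 ± 0.16 (SE), adjusted p = 0.00105). ALDH3A1, an aldehyde dehydrogenase that both AhR and NRF2 can induce, was at 1.47, 6.92 and 1.27 CPM in the controls, 9.34, 31.6 and 9.48 CPM at 1 µg/cm2 and 0.755, 11.3 and 0.813 CPM at 30 µg/cm2 (log2 difference -2.52 ± 0.32 (SE), adjusted p = 1.02e-04). At 30 µg/cm2 its difference from control was 0.09 on the log2 scale (adjusted p = 0.875), against 2.61 at 1 µg/cm2 (adjusted p = 0.00265), and without the block its difference between the doses was not called (adjusted p = 0.189).

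Other targets of the receptor did not pass the test between the doses. CYP1B1, a second enzyme of aromatic hydrocarbon oxidation, was at 989, 685 and 1074 CPM at 1 µg/cm2 and 791, 848 and 842 CPM at 30 µg/cm2, against 244, 176 and 245 CPM in the controls. The difference between the doses was -0.12 on the log2 scale (95% interval -0.44 to 0.21). TIPARP, which ADP-ribosylates AhR, was at 198, 107 and 210.3 CPM at 1 µg/cm2 and 202, 136 and 214 CPM at 30 µg/cm2 (log2 difference 0.14, interval -0.14 to 0.42). The receptor AHR itself was at 36.7, 43.5 and 40.5 CPM at 1 µg/cm2 and 27.9, 29.9 and 33.9 CPM at 30 µg/cm2, a log2 difference of -0.40 ± 0.08 (SE) that was under the threshold of size, and its partner ARNT had -0.28 ± 0.10. Of the list, there were 0 higher and 2 lower without the block and 0 higher and 3 lower without experiment 2. CYP1A2 and UGT1A6, further enzymes under AhR, had at most 6 counts in any library at 24 h. Against control, 5 were called higher at 1 µg/cm2 and 4 at 30 µg/cm2, with AHR itself lower at 30 µg/cm2 (log2 difference -0.68, adjusted p = 7.44e-05), where 0.420% and 15.2% of all genes tested were called (7.36% higher and 7.87% lower at 30 µg/cm2).

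The core of the DNA element that AhR and ARNT bind, GCGTG, was searched on both strands of the RefSeq promoters (GRCh38.p14, 250 bases before to 50 after the start). It was present in 5 of the 7 AhR genes with a promoter in the table and in 40.6% of all 27305 genes there. The 190 bases before the CYP1A1 start (chr15:74725529-74725718, minus strand) are shown because this gene fell most in its list; capitals mark the match, which begins 57 bases before the start.
CYP1A1: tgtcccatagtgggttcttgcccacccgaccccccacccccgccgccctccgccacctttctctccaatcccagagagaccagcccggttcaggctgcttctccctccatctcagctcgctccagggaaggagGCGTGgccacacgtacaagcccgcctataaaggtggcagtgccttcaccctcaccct

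**Figure D3:**
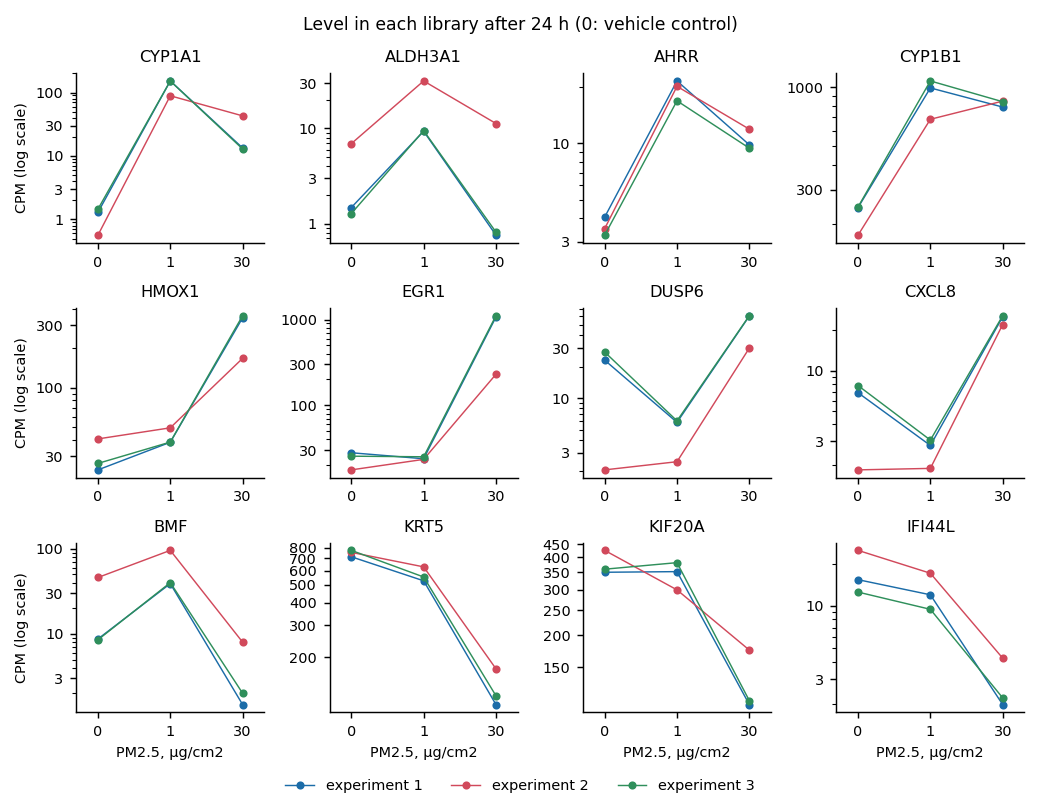
TMM-scaled CPM on a log scale (vertical axes) for 12 genes after 24 h, in vehicle controls (0) and at the doses of 1 and 30 µg/cm2, with 1 line per experiment. CYP1A1, ALDH3A1, AHRR and BMF are highest at 1 µg/cm2 in all 3 experiments, HMOX1, EGR1, DUSP6 and CXCL8 are highest at 30 µg/cm2, and KRT5 and IFI44L are lowest there.

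Of 26 targets of NRF2, 14 were higher at 30 µg/cm2 and 0 lower. HMOX1, which degrades heme, was at 38.4, 49.4 and 38.5 CPM at 1 µg/cm2 and 340.4, 167 and 354 CPM at 30 µg/cm2 (log2 difference 2.78 ± 0.27 (SE), adjusted p = 1.68e-05). OSGIN1, an oxidative stress regulator of growth, went from 1.63, 1.54 and 2.21 CPM at the lower dose to 16.9, 10.8 and 16.6 CPM at the higher, 8.26-fold (log2 difference 3.05 ± 0.19 (SE), adjusted p = 8.85e-07). SLC7A11, the cystine importer that feeds glutathione synthesis, went from 62.2, 110.4 and 56.3 CPM at the lower dose to 465, 186 and 444 CPM at the higher (log2 difference 2.45 ± 0.45 (SE), adjusted p = 0.00147). In all 3 genes the doses did not overlap; for HMOX1 and SLC7A11 the level at 30 µg/cm2 was lowest in experiment 2, where that at 1 µg/cm2 was highest. The catalytic and modifier subunits of glutamate-cysteine ligase, GCLC and GCLM, had log2 differences of 2.07 ± 0.17 (SE) and 1.02 ± 0.12, thioredoxin reductase TXNRD1 1.59 ± 0.17, sulfiredoxin SRXN1 2.28 ± 0.25 and NQO1, a quinone reductase, 1.01 ± 0.15. The ferritin chains that store iron rose as well: FTH1, the heavy chain, from 233, 235 and 198 CPM at the lower dose to 914, 937 and 1257 CPM at the higher (log2 difference 2.23 ± 0.14 (SE), adjusted p = 8.85e-07) and FTL, the light chain, from 2209, 4027 and 2467 CPM at the lower dose to 9006, 11385 and 9468 CPM at the higher (log2 difference 1.83 ± 0.15 (SE), adjusted p = 5.29e-06), although both have near-identical pseudogenes that can share reads and exons of FTH1 overlap BEST1.

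The NRF2 targets called higher made up 53.8% of the list, against 6.97% of all genes tested (12 higher and 0 lower without the block and 13 higher and 0 lower without experiment 2), with a median of 0.90 against 0.02 over all genes. Among enzymes of the pentose phosphate pathway, which supplies NADPH, smaller differences that were not called were seen: 0.15 ± 0.11 (SE) for PGD and 0.31 ± 0.10 for TALDO1. Peroxiredoxin PRDX1 was at 394, 425 and 468 CPM at 1 µg/cm2 and 334, 551 and 352 CPM at 30 µg/cm2, so the doses overlapped. The aldo-keto reductases AKR1C1, AKR1C2 and AKR1C3, near-identical copies whose reads can be split between them, had log2 differences of 1.39, 0.79 and -0.01, of which the first and second were called. Against control, 2 NRF2 targets were called higher at 1 µg/cm2, NQO1 (log2 difference 0.92, adjusted p = 0.0132) and FTL (1.00, adjusted p = 0.0103), and 18 at 30 µg/cm2. Of all genes tested, 0.250% were called higher than control at 1 µg/cm2 and 7.36% at 30 µg/cm2. The antioxidant response core TGACNNNGC was present in 4 of the 18 promoters of this list and in 16.1% of all genes.

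**Figure D4:**
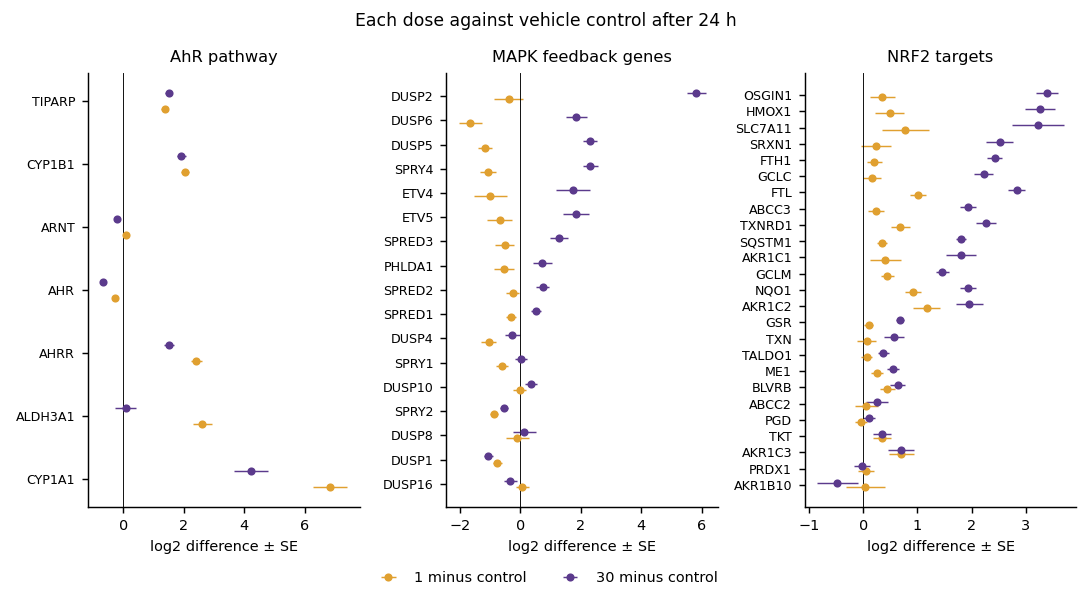
Log2 difference from vehicle control ± SE (horizontal axes) at 1 µg/cm2 (orange) and 30 µg/cm2 (purple) for tested members of the AhR, MAPK feedback and NRF2 lists, in order of the difference between the doses; both differences use the same control libraries. CYP1A1 is at 6.85 and 4.21, DUSP6 at -1.67 and 1.85, and HMOX1 at 0.48 and 3.26.

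Metallothioneins are small cysteine-rich proteins that bind zinc, copper and cadmium, and 6 of 8 genes of this list were higher at 30 µg/cm2. MT2A, the most abundant, was at 1018, 881 and 1142 CPM at 1 µg/cm2 and 4531, 7536 and 4824 CPM at 30 µg/cm2 (log2 difference 2.52 ± 0.34 (SE), adjusted p = 1.66e-04), without overlap, and here experiment 2 had the highest level at 30 µg/cm2. MT1E, MT1X and MT1M, the last with overlap between the doses, had 1.57 ± 0.17 (SE), 1.43 ± 0.17 and 1.47 ± 0.43, and MT1F, which did not pass, 0.44 ± 0.26. MT1G had 59 counts at 30 and 7 at 1 µg/cm2 over the libraries, a ratio of 8.21 (95% exact interval 3.75 to 21.3) after scaling. The zinc exporter SLC30A1, a target of the same metal-sensing factor, had 0.79 ± 0.16. Of the list, 7 genes were tested (5 higher and 0 lower without the block and 7 higher and 0 lower without experiment 2). Those called higher were 85.7% of the members tested, against 6.97% of all genes. The copies are similar in sequence, so reads can be split among members.

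Among 14 heat shock chaperones, 4 were higher and 1 lower at 30 µg/cm2. HSPA6, an inducible member of the HSP70 family that most cells hardly express without stress (chromosome 1, 161524540 to 161526910, GRCh38), was at 0.543, 0.0495 and 0.456 CPM at 1 µg/cm2 and 16.5, 4.61 and 17.3 CPM at 30 µg/cm2, 35.9-fold (log2 difference 5.17 ± 0.35 (SE), adjusted p = 1.13e-06). CRYAB, a small heat shock protein, went from 1.02, 1.39 and 0.913 CPM at the lower dose to 2.66, 1.98 and 3.59 CPM at the higher (log2 difference 1.32 ± 0.37 (SE), adjusted p = 0.0165; adjusted p = 0.0571 without the block), and HSPH1, a nucleotide exchange factor of HSP70, had 0.69 ± 0.14 (SE). HSPA1A was low, at 0.815, 0.297 and 0.948 CPM at 1 µg/cm2 and 1.22, 1.28 and 2.01 CPM at 30 µg/cm2 (log2 difference 1.19 ± 0.38 (SE), adjusted p = 0.0328), and its near-identical neighbour HSPA1B was at 0 counts in all libraries at 24 h, so reads that fit both may be missing. HSPB1, a small heat shock protein of the actin cytoskeleton, fell from 159, 361 and 160.2 CPM at the lower dose to 107, 190.1 and 117 CPM at the higher (log2 difference -0.66 ± 0.11 (SE), adjusted p = 5.85e-04), and the abundant HSPA8 and HSP90AA1 had 0.72 ± 0.32 and 0.05 ± 0.21 and were not called. Of this list 13 were tested (1 higher and 0 lower without the block and 3 higher and 0 lower without experiment 2; 30.8% of those tested were higher and 7.69% lower, against 6.97% and 8.58% of all genes), and HSPA6 was the one called without the block. The heat shock unit pair GAANNTTC was present in 10 of 13 promoters of the list and 8.21% of all genes. That of HSPA6 is shown as the promoter of the largest rise in the list, 190 bases before its start (chr1:161524350-161524539, plus strand, GRCh38.p14, RefSeq), with matches in capitals that begin 180 and 69 bases before the start.
HSPA6: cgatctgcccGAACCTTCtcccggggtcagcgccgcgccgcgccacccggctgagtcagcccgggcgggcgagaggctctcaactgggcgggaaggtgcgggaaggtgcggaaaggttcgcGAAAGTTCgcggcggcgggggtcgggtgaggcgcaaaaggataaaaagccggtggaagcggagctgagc

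Of 22 genes of amino acid supply and of the ATF4 and CHOP stress response, 13 were higher at 30 µg/cm2 and 0 lower. ATF4 is the transcription factor whose translation rises when the initiation factor eIF2 is phosphorylated, and it drives serine, glycine and asparagine synthesis, amino acid import and CHOP. GDF15, a secreted stress signal, was at 21.3, 41.3 and 17.3 CPM at 1 µg/cm2 and 327, 137 and 352 CPM at 30 µg/cm2 (log2 difference 3.45 ± 0.40 (SE), adjusted p = 5.37e-05). TRIB3, a pseudokinase that dampens ATF4, went from 113, 355 and 118 CPM at the lower dose to 922, 772 and 976 CPM at the higher (log2 difference 2.42 ± 0.29 (SE), adjusted p = 6.77e-05), and ASNS, asparagine synthetase, from 144, 623 and 165 CPM at the lower dose to 744, 953 and 805 CPM at the higher (log2 difference 1.85 ± 0.30 (SE), adjusted p = 5.27e-04). The libraries at 30 µg/cm2 were above all those at 1 µg/cm2 in the 3 genes, but experiment 2 started from a higher level and rose less: for ASNS the log2 ratio was 2.36, 0.61 and 2.28 in experiments 1, 2 and 3. DDIT3, which encodes CHOP, was at 11.8, 74.9 and 14.6 CPM at 1 µg/cm2 and 87.0, 77.6 and 91.7 CPM at 30 µg/cm2, a log2 ratio of 0.05 within experiment 2 and of 2.83 and 2.61 in the others. Without the block ASNS and DDIT3 were not called (adjusted p = 0.142 and 0.19), and exons of DDIT3 overlap MARS1. The serine and one-carbon enzymes PHGDH, PSAT1, SHMT2, MTHFD2 and ALDH1L2 had 0.70 ± 0.16 (SE), 1.12 ± 0.19, 0.93 ± 0.10, 0.93 ± 0.17 and 1.58 ± 0.25.

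The list had 6 higher and 0 lower without the block and 16 higher and 0 lower without experiment 2, against the 13 called with both. These 13 were 59.1% of the list, against 6.97% of all genes tested. The median log2 ratio of the list was 1.32 in experiment 1, 0.04 in experiment 2 and 1.24 in experiment 3. The amino acid transporter subunits SLC7A5 and SLC3A2 did not differ between the doses past the test (-0.21 ± 0.11 and 0.26 ± 0.14 on the log2 scale, SE), and were the 2 members called higher than control at 1 µg/cm2 (1.33 and 0.92, adjusted p = 1.08e-04 and 0.012). The cAMP response element TGACGTCA was in 0 of 18 promoters of the list and 2.25% of all genes, which says only that these letters are not in these windows. Of 13 chaperones and other stress genes of the endoplasmic reticulum, 2 were called higher and 0 lower (2 higher and 0 lower without the block and 2 higher and 2 lower without experiment 2). Of those tested, 15.4% were higher and 0% lower, against 6.97% and 8.58% of all genes. Those called were XBP1, a transcription factor (1.09 ± 0.14, SE), and DNAJB9, a co-chaperone (0.69 ± 0.14). HSPA5, the chaperone BiP, was at 930.3, 602 and 1063 CPM at 1 µg/cm2 and 974, 905 and 1040.2 CPM at 30 µg/cm2.

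Of 20 targets of p53, the factor that arrests or kills cells with damaged DNA, 7 were called higher and 0 lower (6 higher and 0 lower without the block and 8 higher and 0 lower without experiment 2), with a median log2 difference of 0.33. Those called higher were 35% of the list, against 6.97% of all genes tested. Within experiments 1, 2 and 3 the median log2 ratio of the list was 0.57, 0.10 and 0.52. CDKN1A, the inhibitor of cyclin-dependent kinases p21, was at 209, 301 and 215 CPM at 1 µg/cm2 and 709, 476 and 729 CPM at 30 µg/cm2 (log2 difference 1.44 ± 0.20 (SE), adjusted p = 2.21e-04). PLK3, a stress kinase, GADD45A, a growth arrest protein, the death receptor TNFRSF10B and the nuclease AEN had 2.03 ± 0.15 (SE), 1.15 ± 0.12, 1.13 ± 0.14 and 0.92 ± 0.10, and MDM2, which degrades p53, had 0.66 ± 0.14. Among the targets not called, BAX (0.04 ± 0.10), FAS (0.13 ± 0.09) and BTG2 (0.28 ± 0.15) overlapped between the doses. In 2 targets of the list every library at 30 µg/cm2 was below every library at 1 µg/cm2, without a call. In 6 targets every library at 30 µg/cm2 was above. The lowest log2 difference of the list was -0.455, which was not called.

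Of 9 genes of the EGF receptor family, the 6 ligands were higher at 30 µg/cm2, and of the 3 receptors 1 was lower. EREG, which encodes epiregulin, was at 23.6, 12.6 and 25.4 CPM at 1 µg/cm2 and 156, 57.8 and 161 CPM at 30 µg/cm2 (log2 difference 2.54 ± 0.13 (SE), adjusted p = 4.17e-07). HBEGF went from 5.13, 6.04 and 7.09 CPM at the lower dose to 25.6, 9.95 and 24.7 CPM at the higher (log2 difference 1.66 ± 0.22 (SE), adjusted p = 1.43e-04), and AREG, which encodes amphiregulin, from 32.6, 54.9 and 39.3 CPM at the lower dose to 104, 58.2 and 107 CPM at the higher (log2 difference 1.10 ± 0.23 (SE), adjusted p = 0.00306). The doses did not overlap in these genes; in experiment 2 the log2 ratio of AREG was 0.08, against 1.66 and 1.44 in experiments 1 and 3. TGFA, BTC and EPGN had 1.14 ± 0.12 (SE), 1.32 ± 0.31 and 1.96 ± 0.35. The receptor EGFR was at 323, 133 and 267 CPM at 1 µg/cm2 and 341, 139 and 326 CPM at 30 µg/cm2, ERBB2 had -0.38 ± 0.08, and ERBB3, which pairs with ERBB2, fell from 23.8, 23.3 and 22.3 CPM at the lower dose to 7.72, 12.2 and 8.76 CPM at the higher (log2 difference -1.30 ± 0.12 (SE), adjusted p = 1.39e-05). In all there were 4 higher and 1 lower without the block and 6 higher and 1 lower without experiment 2. With all libraries and the block, 66.7% of the list were higher and 11.1% lower, against 6.97% and 8.58% of all genes tested.

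Immediate early genes are switched on soon after a growth factor signal, and most of those listed encode transcription factors. Of the 22 listed, 14 were higher at 30 µg/cm2 at 24 h, with 0 lower. EGR1 (chromosome 5, 138465490 to 138469315, GRCh38) was at 27.9, 17.6 and 25.4 CPM in the controls, 23.7, 23.3 and 25.0 CPM at 1 µg/cm2 and 1071, 230.0 and 1111 CPM at 30 µg/cm2, 28.7-fold between the doses (log2 difference 4.84 ± 0.36 (SE), adjusted p = 2.31e-06). The 1 µg/cm2 libraries thus lay at the level of the controls (log2 difference 0.08, adjusted p = 0.982), and at 30 µg/cm2 experiment 2 was far below the others. FOSL1, an AP-1 subunit, went from 18.4, 10.7 and 19.5 CPM at the lower dose to 133, 84.3 and 135 CPM at the higher (log2 difference 2.89 ± 0.22 (SE), adjusted p = 2.42e-06), FOS, another, from 2.62, 3.32 and 2.53 CPM at the lower dose to 16.7, 6.62 and 17.0 CPM at the higher (log2 difference 2.20 ± 0.27 (SE), adjusted p = 7.65e-05), and MAFF, a small MAF protein, from 13.7, 11.6 and 13.8 CPM at the lower dose to 77.5, 41.3 and 80.4 CPM at the higher (log2 difference 2.29 ± 0.15 (SE), adjusted p = 9.53e-07). IER3 had 3.01 ± 0.36 (SE), FOSB 1.65 ± 0.36, JUN 1.07 ± 0.21, NR4A1, an orphan nuclear receptor, 1.36 ± 0.16, and KLF4, a zinc-finger factor, 1.24 ± 0.20, whereas JUND, FOSL2 and KLF6 (-0.21 ± 0.15, -0.33 ± 0.08 and -0.09 ± 0.10) were not called. Of the list 20 were tested (10 higher and 0 lower without the block and 15 higher and 0 lower without experiment 2). Those called higher were 70% of the members tested, against 6.97% of all genes.

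The CArG box, which serum response factor binds, was found in 3 of the 18 promoters of this list, those of EGR1, EGR2 and SRF itself, and in 1.6% of all genes. EGR1 is shown because it rose most among the abundant genes; the 190 bases before its start (chr5:138465289-138465478, plus strand, GRCh38.p14, RefSeq) hold 2 matches, in capitals, that begin 105 and 83 bases before it.
EGR1: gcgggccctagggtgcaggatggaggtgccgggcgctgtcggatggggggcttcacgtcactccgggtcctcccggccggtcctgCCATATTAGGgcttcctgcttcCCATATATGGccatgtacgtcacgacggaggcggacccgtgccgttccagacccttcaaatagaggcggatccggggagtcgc

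Of 17 genes that ERK signalling induces, most of them to restrain itself, 12 were higher at 30 µg/cm2 and 0 lower. DUSP6, a cytoplasmic phosphatase of ERK, was at 23.0, 2.07 and 27.5 CPM in the controls, 5.88, 2.48 and 6.07 CPM at 1 µg/cm2 and 60.7, 30.0 and 61.1 CPM at 30 µg/cm2 (log2 difference 3.51 ± 0.38 (SE), adjusted p = 3.46e-05). SPRY4, a Sprouty inhibitor of RAS activation, was at 18.1, 1.65 and 17.5 CPM in the controls, 7.71, 1.98 and 6.56 CPM at 1 µg/cm2 and 67.6, 23.3 and 65.6 CPM at 30 µg/cm2 (log2 difference 3.37 ± 0.27 (SE), adjusted p = 3.17e-06). DUSP5, the nuclear phosphatase of ERK, was at 37.9, 9.41 and 44.1 CPM in the controls, 12.9, 9.51 and 12.9 CPM at 1 µg/cm2 and 177, 62.7 and 191 CPM at 30 µg/cm2 (log2 difference 3.47 ± 0.25 (SE), adjusted p = 1.76e-06). In experiments 1 and 3 the level of each at 1 µg/cm2 was below control and that at 30 µg/cm2 above it, while in experiment 2 the controls and 1 µg/cm2 were both low and close together. The difference from control at 1 µg/cm2 was not called for these genes (adjusted p = 0.104 for DUSP6, 0.162 for SPRY4 and 0.0636 for DUSP5). The ETS factors ETV4 and ETV5, targets of the pathway, rose from 14.7, 4.26 and 17.5 CPM at the lower dose to 56.7, 73.2 and 58.5 CPM at the higher (log2 difference 2.72 ± 0.57 (SE), adjusted p = 0.00334) and from 20.2, 5.60 and 21.4 CPM at the lower dose to 77.3, 63.4 and 79.6 CPM at the higher (log2 difference 2.52 ± 0.43 (SE), adjusted p = 8.32e-04), and here experiment 2 rose most. Exons of ETV4 and ETV5 overlap DHX8 and DGKG. The genes called higher were 70.6% of this list, against 6.97% of all genes tested (7 higher and 0 lower without the block and 9 higher and 0 lower without experiment 2). DUSP1, which acts on p38 and JNK, was at 87.0, 109.7 and 90.5 CPM at 1 µg/cm2 and 85.5, 61.1 and 91.4 CPM at 30 µg/cm2 and was called lower than control at 30 µg/cm2 (-1.06, adjusted p = 2.60e-04), and SPRY2, at 28.3, 15.4 and 31.7 CPM at 1 µg/cm2 and 33.2, 23.5 and 33.8 CPM at 30 µg/cm2, was the member called lower than control at 1 µg/cm2 (-0.86, adjusted p = 0.012).

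Of 26 cytokines, chemokines and their receptors, 15 were higher at 30 µg/cm2 and 2 lower, with a median log2 difference of 1.75, against 0.02 over all genes tested. Among the members tested, 71.4% were called higher and 9.52% lower, against 6.97% and 8.58% of all genes. LIF, an IL-6 family cytokine, was at 19.3, 10.9 and 18.0 CPM at 1 µg/cm2 and 221, 70.1 and 207 CPM at 30 µg/cm2, 9.64-fold (log2 difference 3.27 ± 0.15 (SE), adjusted p = 1.38e-07). CXCL8, the neutrophil chemoattractant IL-8, was at 6.86, 1.84 and 7.75 CPM in the controls, 2.79, 1.88 and 3.05 CPM at 1 µg/cm2 and 25.1, 22.01 and 25.6 CPM at 30 µg/cm2 (log2 difference 3.29 ± 0.30 (SE), adjusted p = 9.60e-06). IL11, a profibrotic cytokine, went from 2.11, 1.44 and 2.21 CPM at the lower dose to 17.1, 5.03 and 19.6 CPM at the higher (log2 difference 2.76 ± 0.29 (SE), adjusted p = 3.11e-05). In all 3 the doses were apart, and CXCL8 at 30 µg/cm2 was at nearly the same level in the 3 experiments. The alarmin IL1A and its relative IL1B had 1.84 ± 0.16 (SE) and 1.24 ± 0.19, IL24 2.57 ± 0.24, IL6 1.75 ± 0.35, TSLP, an epithelial cytokine of allergy, 1.47 ± 0.24, the neutrophil growth factor CSF3 3.28 ± 0.63 and the chemokines CXCL3 and CCL20 2.29 ± 0.24 and 2.24 ± 0.29. IL1B and IL24 were already called higher than control at 1 µg/cm2 (1.27 and 1.77, adjusted p = 0.0184 and 0.0248).

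Members in the other direction were IL1RN, the IL-1 receptor antagonist, at 0.374, 0.545 and 0.386 CPM at 1 µg/cm2 and 0.164, 0.208 and 0.144 CPM at 30 µg/cm2 (log2 difference -1.26 ± 0.40 (SE), adjusted p = 0.0308), and CXCL14, with 39 counts over the libraries at 1 µg/cm2 and 5 at 30 µg/cm2, a ratio of 8.01 (95% exact interval 3.15 to 26.0); neither was called without the block. IL18 had -0.51 ± 0.13 (SE) and CCL2 overlapped between the doses. Of this list 21 were tested (14 higher and 0 lower without the block and 15 higher and 2 lower without experiment 2), and IL33, TNF, CSF2, CX3CL1 and CCL5 had at most 13 counts in any library at 24 h. The AP-1 element TGANTCA was in 6 of 18 promoters of this list and 9.37% of all genes. Its carriers were IL1A, IL1RL1, IL11 and CXCL8, called higher, and IL1RN and CXCL14, called lower. Of 9 genes of prostaglandin synthesis, breakdown and reception 0 were called higher and 2 lower (0 higher and 0 lower without the block and 1 higher and 5 lower without experiment 2, with 0 lower without experiment 3; 0% of those tested were higher and 22.2% lower, against 6.97% and 8.58% of all genes). PTGS2, the inducible cyclooxygenase, had 1.04 ± 0.37 and was not called, the receptor PTGER2 was called lower (-0.72 ± 0.24), and so was HPGD, which breaks prostaglandins down, with 15 counts at 1 µg/cm2 and 2 at 30 µg/cm2 in all. Neither PTGER2 nor HPGD was called without the block.

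Interferon-stimulated genes encode antiviral proteins, and 6 of 16 were lower at 30 µg/cm2, with 0 higher. IFI44L was at 15.4, 24.9 and 12.5 CPM in the controls, 12.0, 17.1 and 9.44 CPM at 1 µg/cm2 and 1.97, 4.23 and 2.20 CPM at 30 µg/cm2 (log2 difference -2.23 ± 0.14 (SE), adjusted p = 8.85e-07). IFIT1, which binds foreign RNA caps, went from 21.8, 20.6 and 27.4 CPM at the lower dose to 4.73, 11.6 and 4.31 CPM at the higher (log2 difference -1.84 ± 0.24 (SE), adjusted p = 1.53e-04), and IFI44 from 12.8, 9.02 and 12.5 CPM at the lower dose to 6.77, 6.86 and 7.18 CPM at the higher (log2 difference -0.71 ± 0.11 (SE), adjusted p = 5.98e-04). The doses did not overlap in these 3 genes. ISG15, a ubiquitin-like modifier, IFI6 and IFIT2 had -0.67 ± 0.20 (SE), -0.91 ± 0.12 and -0.62 ± 0.19, with levels that overlapped between the doses across experiments and calls that were lost without the block (adjusted p = 0.187, 0.212 and 0.0828). The upstream factor IRF7 (0.05 ± 0.16), MX1 (-0.12 ± 0.14) and OAS3 (0.08 ± 0.13) were not called. The genes called lower were 37.5% of the list, against 8.58% of all genes tested (0 higher and 3 lower without the block and 0 higher and 9 lower without experiment 2), with a median of -0.61.

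The interferon response element, 2 GAAA blocks with 2 bases between them, was in 11 of 12 promoters of this list, including those of MX1 and OAS3, and in 4.38% of all genes. The 190 bases before IFI44L (chr1:78620258-78620447, plus strand, GRCh38.p14, RefSeq), the member that fell most, are shown, with matches in capitals that begin 164 and 73 bases before the start.
IFI44L: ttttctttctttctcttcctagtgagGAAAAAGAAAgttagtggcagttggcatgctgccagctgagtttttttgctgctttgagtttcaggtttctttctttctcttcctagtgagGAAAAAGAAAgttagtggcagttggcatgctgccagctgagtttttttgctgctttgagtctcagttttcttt

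**Figure D5:**
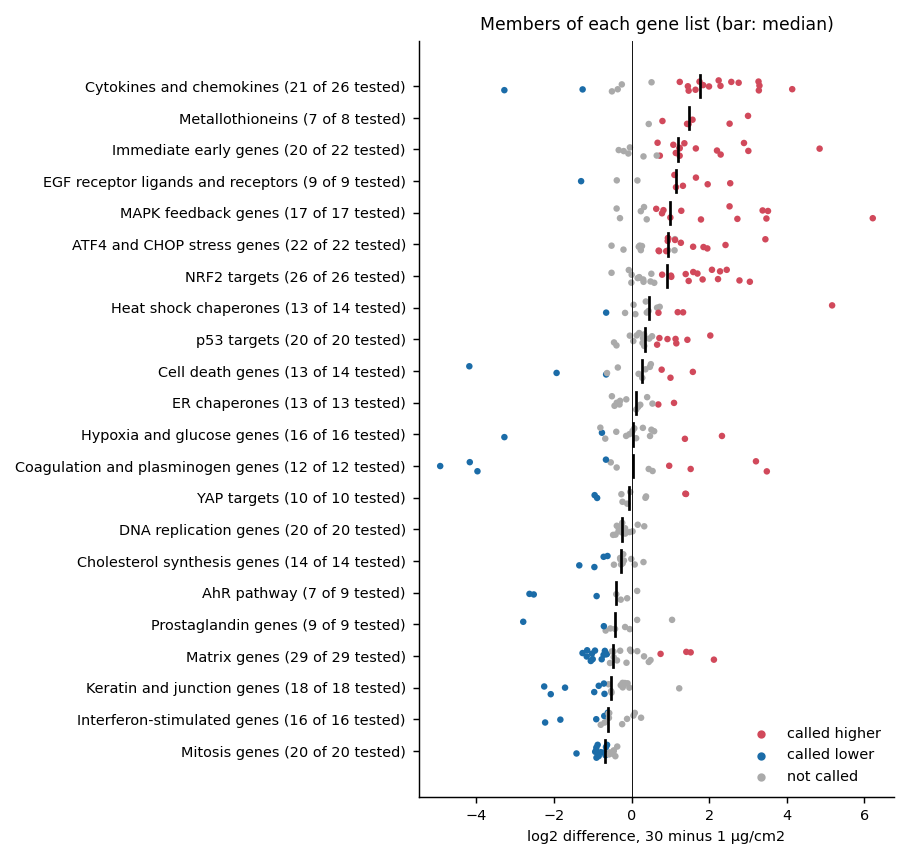
Log2 difference between 30 and 1 µg/cm2 (horizontal axis) of each tested gene in 22 lists, in order of the median (bar), with genes called higher in red, called lower in blue and not called in grey. Medians run from -0.69 for mitosis genes to 1.75 for cytokines and chemokines, and the DNA replication list has no called member.

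Of 12 genes of clotting and plasminogen activation 4 were higher and 4 lower at 30 µg/cm2. SERPINB2, an inhibitor of plasminogen activators, went from 1.05, 0.545 and 1.65 CPM at the lower dose to 15.9, 4.44 and 16.7 CPM at the higher (log2 difference 3.48 ± 0.30 (SE), adjusted p = 6.45e-06), and F3, tissue factor, which starts clotting, from 59.4, 22.5 and 65.5 CPM at the lower dose to 162, 75.5 and 169 CPM at the higher (log2 difference 1.52 ± 0.10 (SE), adjusted p = 1.26e-06). Both were apart between the doses. The activator PLAT fell, from 24.8, 24.1 and 23.3 CPM at the lower dose to 15.1, 15.8 and 14.7 CPM at the higher (log2 difference -0.66 ± 0.10 (SE), adjusted p = 2.90e-04), and PLAU had -0.39 ± 0.10 (SE). Fibrinogen chains were low and lower still at 30 µg/cm2: FGG went from 1.97, 6.29 and 2.49 CPM at the lower dose to 0, 0.555 and 0.0479 CPM at the higher (log2 difference -4.17 ± 0.44 (SE), adjusted p = 2.64e-05), and FGA had 43 counts over the libraries at 1 µg/cm2 and 3 at 30 µg/cm2, a ratio of 14.7 (95% exact interval 4.71 to 74.1). In this list there were 3 higher and 4 lower without the block and 5 higher and 5 lower without experiment 2. With all libraries and the block, 33.3% were higher and 33.3% lower, against 6.97% and 8.58% of all genes tested.

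Of 29 matrix genes 12 were lower at 30 µg/cm2 and 4 higher, 41.4% and 13.8% of the list, against 8.58% and 6.97% of all genes tested. SPARC, which binds collagen, was at 466, 457 and 495 CPM at 1 µg/cm2 and 199.8, 286 and 206 CPM at 30 µg/cm2 (log2 difference -1.05 ± 0.11 (SE), adjusted p = 2.46e-05), and EFEMP1, a fibulin, at 527, 545 and 601 CPM at 1 µg/cm2 and 231, 269 and 251 CPM at 30 µg/cm2 (log2 difference -1.15 ± 0.13 (SE), adjusted p = 5.59e-05). The basement membrane collagen COL4A4 went from 173, 114 and 147 CPM at the lower dose to 68.3, 60.3 and 64.7 CPM at the higher (log2 difference -1.16 ± 0.12 (SE), adjusted p = 3.11e-05), with COL4A3 and COL4A5, which assemble with it, at -0.69 ± 0.16 (SE) and -0.77 ± 0.10. COL4A1 and COL4A2, the chains of most basement membranes, had 0.14 ± 0.12 and -0.02 ± 0.10 and were not called. The collagen cross-linking enzyme LOX had -0.95 ± 0.13 and was already below control at 1 µg/cm2 (-0.86, adjusted p = 0.00874), as was EFEMP1 (-1.05, adjusted p = 0.00391). In contrast LAMB3, a laminin chain, rose from 47.0, 25.3 and 44.2 CPM at the lower dose to 241, 71.4 and 244 CPM at the higher (log2 difference 2.12 ± 0.16 (SE), adjusted p = 2.70e-06), LAMA3 had 0.75 ± 0.12 and TNC, the injury-associated tenascin, 1.41 ± 0.12. LAMA3 overlapped between the doses and was not called without the block. The matrix list had 2 higher and 10 lower without the block and 3 higher and 14 lower without experiment 2.

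Among keratins and junction genes 7 of 18 were called lower and 0 higher (0 higher and 6 lower without the block and 1 higher and 8 lower without experiment 2; 0% of those tested were higher and 38.9% lower, against 6.97% and 8.58% of all genes). KRT5, the keratin of basal cells, was at 714, 755 and 774 CPM in the controls, 527, 628 and 553 CPM at 1 µg/cm2 and 110.3, 173 and 123 CPM at 30 µg/cm2, 4.25-fold lower (log2 difference -2.09 ± 0.11 (SE), adjusted p = 4.88e-07). KRT19 went from 261, 522 and 264 CPM at the lower dose to 71.8, 181 and 77.1 CPM at the higher (log2 difference -1.72 ± 0.13 (SE), adjusted p = 2.38e-06) and KRT15 from 3.80, 8.77 and 3.72 CPM at the lower dose to 1.12, 1.21 and 0.957 CPM at the higher (log2 difference -2.25 ± 0.28 (SE), adjusted p = 9.34e-05). The partners of KRT5 and KRT8 did not pass the test: KRT14 was at 5.67, 14.0 and 4.77 CPM at 1 µg/cm2 and 6.96, 5.03 and 7.23 CPM at 30 µg/cm2, and KRT18 had -0.18 ± 0.14 (SE) where KRT8 had -0.85 ± 0.11. The hemidesmosome integrin ITGB4 and the desmosomal cadherin DSG3 had -0.72 ± 0.09 and -0.97 ± 0.17, and E-cadherin CDH1 and the basal factor TP63 had -0.52 ± 0.13 and -0.59 ± 0.12, under the threshold of size. Of 10 targets of YAP, the factor of cell density and tension, 2 were higher and 2 lower (1 higher and 2 lower without the block and 2 higher and 2 lower without experiment 2; 20% of those tested were higher and 20% lower, against 6.97% and 8.58% of all genes). CCN1 and CCN2 were higher (1.40 ± 0.12 and 1.38 ± 0.42), AMOT and AJUBA fell (-0.95 ± 0.17 and -0.89 ± 0.10), and ANKRD1 had -0.27 ± 0.27. CCN2 was at 311, 31.2 and 345 CPM in the controls, 46.3, 24.0 and 56.2 CPM at 1 µg/cm2 and 102, 82.6 and 110.4 CPM at 30 µg/cm2, so it was highest in the controls of experiments 1 and 3 and at 30 µg/cm2 in experiment 2 (adjusted p = 0.205 between the doses without the block).

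Of 20 genes of mitosis 13 were lower at 30 µg/cm2 and 0 higher, and of 20 genes of DNA replication 0 were called. KIF20A, a kinesin of cytokinesis, was at 352, 299 and 381 CPM at 1 µg/cm2 and 108, 175 and 112 CPM at 30 µg/cm2 (log2 difference -1.42 ± 0.15 (SE), adjusted p = 3.26e-05), and TOP2A, a topoisomerase, at 1169, 708 and 1211 CPM at 1 µg/cm2 and 514, 591 and 510.5 CPM at 30 µg/cm2 (log2 difference -0.91 ± 0.16 (SE), adjusted p = 9.67e-04). Cyclin B1, CCNB1, was at 470.2, 681 and 551 CPM at 1 µg/cm2 and 229, 497 and 245 CPM at 30 µg/cm2 (log2 difference -0.88 ± 0.13 (SE), adjusted p = 3.14e-04), with overlap between experiments. The kinases PLK1 and AURKA had -0.87 ± 0.17 (SE) and -0.79 ± 0.15 and the proliferation antigen MKI67 -0.91 ± 0.16. The mitosis genes called lower were 65.0% of the list, against 8.58% of all genes tested (0 higher and 10 lower without the block and 0 higher and 19 lower without experiment 2). The median log2 ratio of this list was -0.88 and -0.94 in experiments 1 and 3 and -0.25 in experiment 2. For replication genes the median was -0.25, with a range of -0.48 to 0.32, and MCM2, a helicase subunit, was at 329, 368 and 333 CPM at 1 µg/cm2 and 245, 297 and 248 CPM at 30 µg/cm2. The count of 0 for replication genes was the same with edgeR's test with and without the block and without experiment 2. DESeq2 also called 0, and edgeR's unadjusted p was under 0.05 for 12 of them with the block, 11 lower and 1 higher. Over all 17599 genes tested, edgeR's unadjusted p was under 0.05 for 7303, in either direction. For the other lists with 0 calls in one direction, edgeR's unadjusted p was under 0.05 in that direction for at most 3 members, as in the endoplasmic reticulum list. DESeq2 called at most 1, in the keratin and junction list.

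Of 14 genes of cholesterol synthesis and uptake 4 were called lower and 0 higher (0 higher and 4 lower without the block and 0 higher and 6 lower without experiment 2; 0% of those tested were higher and 28.6% lower, against 6.97% and 8.58% of all genes). LSS, lanosterol synthase, fell from 107, 44.7 and 89.5 CPM at the lower dose to 30.2, 33.7 and 25.6 CPM at the higher (log2 difference -1.35 ± 0.21 (SE), adjusted p = 3.93e-04). Within experiments 1, 2 and 3 the median log2 ratio of the cholesterol list was -0.49, 0.18 and -0.56. Among 16 genes of hypoxia and glucose, 2 were higher and 2 lower (2 higher and 2 lower without the block and 5 higher and 3 lower without experiment 2; 12.5% of those tested were higher and 12.5% lower, against 6.97% and 8.58% of all genes). NDRG1 and VEGFA rose (2.33 ± 0.33 and 1.37 ± 0.15) and CA9, a carbonic anhydrase of hypoxic cells, and LDHA fell (-3.28 ± 0.43 and -0.77 ± 0.20). CA9 was at 1.73, 6.54 and 2.39 CPM at 1 µg/cm2 and 0.263, 0.381 and 0.383 CPM at 30 µg/cm2. Of the 14 cell death genes 13 were tested, 3 were called higher and 3 lower (2 higher and 3 lower without the block and 3 higher and 4 lower without experiment 2; 23.1% of those tested were higher and 23.1% lower, against 6.97% and 8.58% of all genes). Beside BMF, the BH3-only BCL2L11 and the death ligand TNFSF10 fell (-0.66 ± 0.12 and -1.94 ± 0.18), and the BH3-only PMAIP1 and the receptors TNFRSF10A and TNFRSF12A rose (0.77 ± 0.15, 1.00 ± 0.12 and 1.58 ± 0.17).

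Lastly, 14 genes that the study names for opposite responses to the doses were followed; they were chosen on these samples, so their direction is not independent evidence. Of these, 13 were tested, 10 were higher and 3 lower at 30 µg/cm2 (10 higher and 3 lower without the block and 10 higher and 3 lower without experiment 2), and TIE1 did not pass the filter. The paper lists these genes by opposed directions of expression, a different measure from a call against control. By the call used here, 2 of them differed from control at 1 µg/cm2, BMF higher and 1 lower, and 13 at 30 µg/cm2. Of all genes tested, 0.420% were called against control at 1 µg/cm2 and 15.2% at 30 µg/cm2. AQP3, a water and glycerol channel, was at 4.21, 16.6 and 5.10 CPM in the controls, 9.99, 19.2 and 10.7 CPM at 1 µg/cm2 and 0.887, 2.60 and 1.67 CPM at 30 µg/cm2 (log2 difference -3.04 ± 0.22 (SE), adjusted p = 1.73e-06), and its difference from control at 1 µg/cm2 was 0.80 (adjusted p = 0.0939). Of the 4 genes named for the low dose alone, which the study also chose on these samples, RCAN2, a calcineurin regulator, was at 0.150, 0.235 and 0.283 CPM in the controls, 0.849, 1.29 and 1.33 CPM at 1 µg/cm2 and 0.0328, 0.277 and 0.0479 CPM at 30 µg/cm2 (log2 difference -3.23 ± 0.47 (SE), adjusted p = 2.94e-04), and WNT9A, a WNT ligand, at 7.64, 9.36 and 7.19 CPM in the controls, 17.1, 12.3 and 15.8 CPM at 1 µg/cm2 and 6.83, 6.00 and 7.99 CPM at 30 µg/cm2 (log2 difference -1.13 ± 0.17 (SE), adjusted p = 2.93e-04). FYB1 had at most 17 counts in a library at 24 h and did not pass the test between the doses (-1.79 ± 0.96, SE).

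Of 11 markers of leukocytes, endothelium and differentiated airway or alveolar cells, CD14 alone passed the filter on low counts. It was at 14.2, 23.4 and 15.2 CPM at 1 µg/cm2 and 2.299, 17.8 and 2.97 CPM at 30 µg/cm2 (log2 difference -1.48 ± 0.42 (SE), adjusted p = 0.0184; adjusted p = 0.198 without the block), and airway epithelial cells can express it. The other 10 summed to 0.713 to 0.793 CPM at 1 µg/cm2 and 0.431 to 0.920 CPM at 30 µg/cm2, with CD3E and SCGB1A1 at 0 in all libraries at 24 h. The part of these levels in the results above was not tested. Exons of AHRR (PDCD6), CYP1B1 (RMDN2-AS1, CYP1B1-AS1, RMDN2), TIPARP (TIPARP-AS1), SLC7A11 (SLC7A11-AS1), PRDX1 (MMACHC), HSP90AA1 (WDR20), SHMT2 (NDUFA4L2), MTHFD2 (SLC4A5), ALDH1L2 (NOPCHAP1), DNAJB9 (PNPLA8, THAP5), MDM2 (the carboxypeptidase M gene), FAS (ACTA2), TNFRSF10B (RHOBTB2), EGFR (EGFR-AS1), ERBB2 (MIEN1, PGAP3), LIF (LIF-AS2), IFIT2 (LIPA), PLAU (C10orf55), COL4A3 (MFF-DT), LOX (SRFBP1), KRT8 (KRT18), KRT18 (KRT8), KIF20A (BRD8, CDC23), MCM2 (TPRA1), CA9 (ARHGEF39) and TNFRSF10A (TNFRSF10A-AS1, TNFRSF10A-DT) overlap those of the genes in parentheses, so their reads are uncertain to that extent.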

How the data were processed

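Libraries of poly-A mRNA from BEAS-2B cells were sequenced as single-end reads of 50 bases. Per the methods and labels, the authors aligned the reads with STAR and deposited raw read counts per gene from featureCounts. The labels name hg19 and the methods GRCh38; the coordinates in the table were those of GRCh38, and the strand option is not given in the sources used here. Counts were fitted with edgeR 4.0.16 (R 4.3.3) over all 15 libraries, after filterByExpr and TMM, as 5 condition means plus a block for the experiment within each protocol. The contrast was 30 minus 1 µg/cm2, tested by quasi-likelihood with Benjamini-Hochberg adjustment at 0.05 and a log2 difference of 0.6. Standard errors came from the F statistic and intervals from a t distribution with 6 residual degrees of freedom.

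The series design states that the last number of a title marks the experimental batch. Deviations of same-numbered libraries from their dose means correlated at 0.721, 0.785 and 0.570. Between experiments 1 and 3 the deviations correlated at 0.581 and 0.475, and between experiment 2 and the others at -0.594 to -0.747. The mean of a dose includes all its libraries, so where experiment 2 departs, the others deviate the opposite way. The signs of these correlations are thus in part arithmetic. With that limit, the values set experiment 2 apart from the others, and separate experiments 1 and 3 little. Nothing says more of how the experiments were separated than that they were independent. With the block, p-values measure the spread that remains after differences in level between experiments are taken out. That spread is estimated over all 15 libraries. Intervals on ratios of counts are exact binomial ones and cover counting error only.

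Named genes were, for each direction, the 10 called genes of greatest log2 difference with a symbol, a mean of at least 1 CPM in the higher group and all 9 library pairs in one direction, the members of 25 gene lists, and genes with a printed promoter. Members and lists were chosen with earlier results of these data known. Promoters came from RefSeq (GRCh38.p14) by symbol, and motifs were searched over all of a gene's entries. The alternatives were other normalizations, filters, tests, sets of libraries and the fit without the block. A few list members are not reported here by name.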

Additional observations from a re-analysis of the deposited data

How the results depend on the processing

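Without the replicate block, 1379 genes were called between the doses in place of 2737, 637 higher and 742 lower, and 1371 of them were among the 2737 with the same direction. In the 6 libraries of the doses alone without the block there were 149 calls (76 higher, 73 lower), and 902 (377 higher, 525 lower) passed a test against a fold of 1.5. Leaving out one experiment or library at a time gave 1934 to 3374 calls, 794 to 1456 higher and 1140 to 1918 lower; the highest was without experiment 2 and the lowest without experiment 1. Without both the block and experiment 2, an alternative chosen after seeing the data, 3113 genes were called. Under the other normalizations, filters, tests and sets of libraries the count lay between 2451 and 3074, DESeq2 gave 2593, and 0 calls were reversed in any setting. Genes called higher made up 37.5% of calls with upper-quartile scaling and 44.8% with TMM. Of the 374 named genes tested, 191 were called, of which 49 were not called without the block and 3 were not called with DESeq2.

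Against control, 22 named genes were called at 1 µg/cm2, 7 without the block, 11 in the 9 libraries at 24 h alone, and 8 to 81 with an experiment left out (81 without experiment 2, 8 without experiment 1 or 3). At 30 µg/cm2 these were 206, 161, 199 and 183 to 243. Calls at 1 µg/cm2 against control thus depend on single experiments more than those between the doses. Genes with a few counts per library are limited by depth, and 3 libraries per dose limit the rest.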
